A study of Homo sapiens with 4 samples.

Results

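Autophagy genes including *WIPI1* were examined in human Nalm-6 pre-B cells with and without a disrupted gene for a subunit of the INO80 chromatin remodeling complex. The set has 10 genes, *WIPI1*, *WIPI2*, *ULK1*, *BECN1*, *ATG5*, *ATG7*, *ATG12*, *MAP1LC3B*, *GABARAPL1* and *SQSTM1*, of 17721 genes named on the array. They were chosen by their role in autophagy and with the processed signals of these same 4 arrays already known, among them the ratios of *WIPI1* to wild-type cells. The ratios below are therefore a description, and no test was made of them. A probe belongs to the set when its transcript accession is one of these genes, which gave 21 probes. There is 1 probe for 2 of the genes, 2 probes for 5 and 3 probes for 3. All 21 probes were well above background on all 4 arrays, as marked by the scanner software, so no member was lost to a filter.

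Total RNA of each genotype had been hybridized to 1 single-color Agilent array. The groups are wild-type cells, Arp5 KO cells and Arp8 KO cells, in which the gene locus was disrupted by homologous recombination, and cells labelled Arp8 overexpression. Per the design text, the latter are Arp8 KO cells that received Arp8 under a tetracycline-regulated Tet-Off system. All groups are the Nalm-6 line without oxidative stress, and all 4 arrays lay on 1 slide and were read in 1 scan. No genotype was measured more than once, so no p-value is given, and a difference between cell lines and a difference between clones or cultures cannot be told apart.

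Autophagy delivers cytoplasmic material to the lysosome inside a double-membraned vesicle, the autophagosome. The ULK kinase complex starts the process, the class III phosphatidylinositol 3-kinase complex marks the growing membrane with a lipid, and WIPI proteins bind that lipid and recruit the machinery that conjugates ATG8 proteins such as LC3 to the membrane. Receptors link cargo to the ATG8 proteins, and fusion factors then join the closed vesicle to the lysosome.

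The targeted genes are described before the members. *ACTR5*, the gene for Arp5, had a processed signal of 1909 units in the wild type, 65.3 for Arp5 KO and 1849 for Arp8 KO cells and 2088 on the labelled Arp8 overexpression array. Its log2 ratio to wild-type was -4.85 in Arp5 KO cells. *ACTR8*, the gene for Arp8, has 2 probes, with ratios of -0.49 and -0.40 for Arp8 KO cells, and -0.71 and -0.23 on the labelled Arp8 overexpression array. Neither *ACTR8* probe was higher on that array than in wild-type cells, and it is called the labelled Arp8 overexpression array throughout. Whether these probes detect the added Arp8 is not given in the sources used here, so they do not check the label. Whether the *ACTR8* probes lie in the disrupted part of the gene is not given in the sources used here, so they do not check the knockout. The 9 pre-B cell marker genes reported, among them *CD79A* and *PAX5*, were well above background on the 4 arrays, but their levels were not constant. *CD79A* was at -0.56 in Arp5 KO cells and 0.50 on the labelled Arp8 overexpression array, *VPREB1* at -0.61 in Arp8 KO cells, and 1 of 3 *IGLL1* probes at -0.84 on the labelled Arp8 overexpression array.

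Of 7 marker genes of other cell types, 6 had a probe. *CD3D* and *EPCAM* were not well above background on any array. The 9 probes of these markers summed to 576 units in the wild type, 598 for Arp5 KO and 515 for Arp8 KO cells and 425 on the labelled Arp8 overexpression array, and the highest signal was 311 units, for *KRT18*. On the last of these arrays *KRT18* had log2 ratios to wild-type of -0.89, -0.65 and -0.79, and *CSF1R* a ratio of 1.17 at 25.3 units. Their part in the values below was not tested.

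*WIPI1* encodes a protein that binds phosphatidylinositol 3-phosphate on the forming autophagosome. Its 1 probe gave a processed signal of 603 units for wild-type, 1589 for Arp5 KO and 1955 for Arp8 KO cells, with 2233 on the labelled Arp8 overexpression array. The wild-type array was thus the lowest and the other 3 lay close together, within 0.45 on the log2 scale. Relative to the 75th percentile of each array, the log2 ratio to wild-type was 1.42 for Arp5 KO cells (2.68-fold), 1.68 for Arp8 KO cells (3.20-fold) and 1.87 on the labelled Arp8 overexpression array (3.65-fold). These 3 ratios share the wild-type array and are not independent of each other. Per the design text, the cells of the last 2 arrays also share an Arp8 KO origin. The steps between the upper 3 arrays were 0.26 from Arp5 KO to Arp8 KO cells and 0.19 from Arp8 KO cells to the labelled Arp8 overexpression array, and without replicates it cannot be said whether these 3 differ.

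The size of the *WIPI1* ratios was set beside the errors that these arrays allow. For probes spotted 10 times and over 500 units on every array, the SD of a log2 ratio between spots had a median of 0.03 in each comparison. Different probes of a gene disagreed more, with a median SD of 0.10 for Arp5 KO over wild-type cells across 3330 genes and a 90th percentile of 0.27. The 3 ratios of *WIPI1* to wild-type were known when the set was chosen, so setting them beside these technical errors is no test. These errors do not include the variation between cultures. *WIPI1* rests on 1 spot per array, none of them marked as an outlier by the scanner software. The median pixel signal of the spot was 531, 1363, 1662 and 1926 units in the same order of arrays, over a local background of 18 to 22 units. An odd wild-type culture and an effect shared by the cells of the other 3 arrays cannot be told apart.

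The promoter of *WIPI1* is shown because it is the member with the largest ratios, beside that of its paralog *WIPI2*, whose ratios were small; *WIPI2* has 2 promoters in the table and that with GC boxes is printed. Sequences are from RefSeq on build GRCh38.p14 and run from 250 bases before to 50 after the gene start, and all 10 members matched, with 14 promoters. The *WIPI1* promoter lies at chr17:68457447-68457746 on the minus strand and that of *WIPI2* at chr7:5189983-5190282 on the plus strand. Capitals mark the GC box GGGCGG, read on either strand, with overlapping matches counted.
WIPI1: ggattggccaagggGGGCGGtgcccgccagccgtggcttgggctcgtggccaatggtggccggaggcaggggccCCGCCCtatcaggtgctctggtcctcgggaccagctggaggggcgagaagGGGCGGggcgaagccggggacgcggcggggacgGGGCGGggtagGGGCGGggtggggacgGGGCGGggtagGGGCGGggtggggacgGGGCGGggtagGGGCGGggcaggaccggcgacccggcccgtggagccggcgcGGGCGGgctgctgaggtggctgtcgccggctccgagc
WIPI2: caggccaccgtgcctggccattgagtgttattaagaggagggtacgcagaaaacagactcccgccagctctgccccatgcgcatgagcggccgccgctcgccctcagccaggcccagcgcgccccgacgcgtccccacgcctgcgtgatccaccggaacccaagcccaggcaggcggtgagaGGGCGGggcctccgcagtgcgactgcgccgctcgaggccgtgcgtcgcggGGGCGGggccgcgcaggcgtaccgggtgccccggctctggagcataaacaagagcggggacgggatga
The GC box occurred 10 times in the *WIPI1* window, much of it in a repeated stretch before the start, and 2 times in that of *WIPI2*. Of 35116 promoters of this length, 45.0% held at least 1 GC box and 0.214% held 10 or more. The E-box CACGTG, in 7.26% of all promoters, and the AP-1 motif TGANTCA, in 7.71%, were also searched on both strands and occur in neither window. With only GC boxes present, no matches of different motifs overlap. The *WIPI1* window is 79.7% G and C, against a median of 58.7% over all promoters, and members with small ratios came near it, with 78.3% and 5 GC boxes for *ULK1* and 75.7% and 4 GC boxes for *MAP1LC3B*. These matches describe the letters only, and binding of any factor was not measured.

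In Arp5 KO cells, *WIPI1* was the only member beyond 2-fold of wild-type, 1 of 21 probes higher and 0 lower. Of 29912 probes tested on these arrays, 1.17% were higher and 1.14% lower beyond 2-fold. At 1.5-fold the members gave the same counts, 1 higher and 0 lower, where 5.01% and 3.88% of all probes passed. The median log2 ratio was 0.07 over the 21 member probes, 0.02 without *WIPI1* and 0.04 over all probes, and the member median fell to 0.0040 with quantile normalization and 0.032 with the authors' table. The 20 probes of the other members lay between -0.38 and 0.33. In log2 ratio, 115 of the 29912 probes were above *WIPI1*. Apart from *WIPI1*, the members thus gave small ratios in both directions, and of the 21 probes 11 were above and 10 below wild-type under every scaling tried.

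In Arp8 KO cells, beyond 2-fold the members had 1 higher probe and 0 lower, where 1.48% and 2.06% of 29530 probes were. At 1.5-fold 1 probe was higher, that of *WIPI1*, and 2 were lower, both of *ATG12*, against 5.34% and 6.89% of all probes. The median over the members was 0.13 (0.073 with normexp), and 0.01 over all probes, and 17 member probes were above wild-type, of which 1 of *WIPI2* changes sign with the scaling. On the labelled Arp8 overexpression array, again 1 probe was higher and 0 lower than in wild-type cells beyond 2-fold, where 1.48% and 2.76% of 29695 probes were. At 1.5-fold 1 was higher and 0 lower, against 5.32% and 7.93%. The median over the members was 0.19 (0.14 with quantile normalization and 0.15 with the authors' table), and 0.01 over all probes, and 17 were above wild-type, of which 2, of *ATG12* and *BECN1*, change sign with the scaling. *WIPI1* was exceeded by 110 probes in the former comparison and by 87 in the latter.

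Between Arp8 KO cells and the labelled Arp8 overexpression array, no member passed 2-fold, with 0 of 21 in either direction, where 0.936% of 29261 probes were higher and 0.923% lower in Arp8 KO cells. At 1.5-fold 0 were higher and 2 were lower, both of *ATG12*, against 4.43% and 4.02%. *WIPI1* differed by -0.19 between these arrays. The median over the members was -0.15, and 0.01 over all probes. Of the 21 probes 16 were lower in Arp8 KO cells, and 2 of the 21, of *GABARAPL1* and *WIPI2*, change sign with the scaling between arrays.

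**Figure D1:**
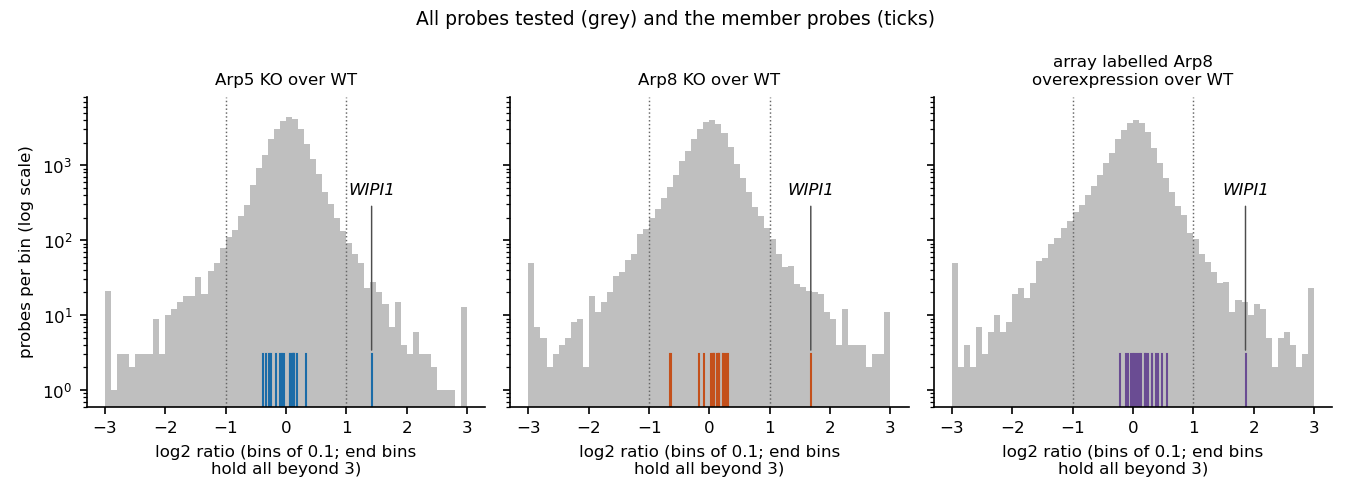
Histograms of the log2 ratio to wild-type for all probes tested (grey, number of probes on a log axis), with the 21 member probes as ticks, for Arp5 KO cells, Arp8 KO cells and the labelled Arp8 overexpression array. Dotted lines mark 2-fold. *WIPI1*, at 1.42, 1.68 and 1.87, stands apart from the other members, which lie between -0.66 and 0.57.

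The initiation genes gave small ratios. *ULK1* encodes the kinase that starts autophagy. Its brighter probe had 8631 units in the wild type, 9292 for Arp5 KO and 10161 for Arp8 KO cells and 12195 on the labelled Arp8 overexpression array, and its other probe 2046, 1976, 2173 and 2723 units. The log2 ratios of its 2 probes were 0.13 and -0.03, 0.22 and 0.07, and 0.48 and 0.39 in the same order, so both probes were highest on the last array. *BECN1*, the scaffold of the class III phosphatidylinositol 3-kinase complex, has 3 probes. In the order wild-type, Arp5 KO, Arp8 KO and labelled Arp8 overexpression they were at 6105, 4969, 6329 and 6222 units, at 8512, 8808, 9428 and 10334, and at 3371, 3557, 3810 and 4251. The ratios ran from -0.27 to 0.10 in Arp5 KO cells, from 0.03 to 0.16 in Arp8 KO cells and from 0.00 to 0.31 on the labelled Arp8 overexpression array, where the lowest changes sign with the scaling. In Arp5 KO cells the *BECN1* probes disagreed in sign, and no direction can be given for the gene.

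*WIPI2* is the paralog of *WIPI1* that recruits the ATG16L1 complex to the membrane. Its 3 probes were at 10938, 1966 and 21112 units in wild-type cells, at 12259, 1727 and 22855 for Arp5 KO, at 12424, 2090 and 21866 for Arp8 KO and at 12720, 1849 and 23219 on the labelled Arp8 overexpression array. No probe was far from its wild-type signal. The log2 ratios were 0.19, -0.16 and 0.14 in Arp5 KO cells, 0.17, 0.07 and 0.03 (this last changing sign with the scaling) for Arp8 KO cells, and 0.19, -0.11 and 0.11 on the labelled Arp8 overexpression array. The *WIPI2* probes thus stayed within 0.20 of wild-type on each array, and they disagreed in sign on 2 of the 3 arrays. Whether the ratios of *WIPI1* and *WIPI2* differ was not tested.

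**Figure D2:**
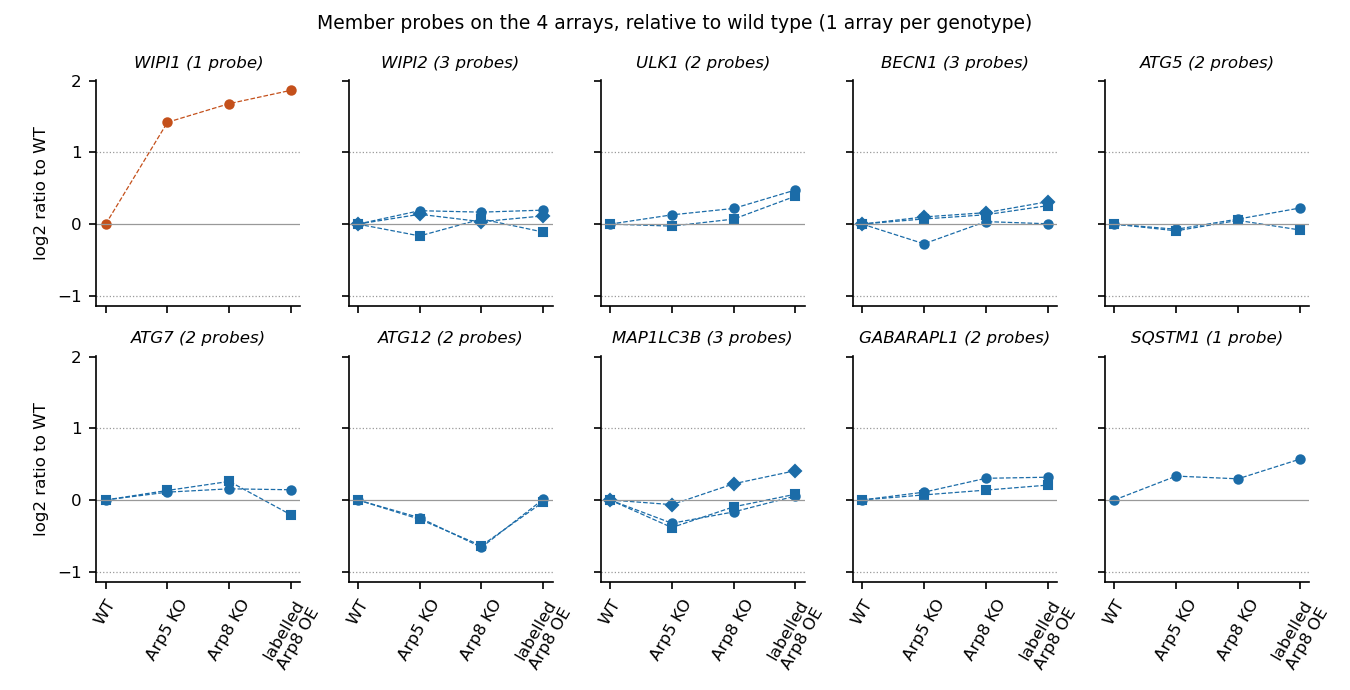
Log2 ratio to wild-type of each member probe on the wild-type (0 by definition), Arp5 KO, Arp8 KO and labelled Arp8 overexpression (OE) arrays, 1 array each. Dashed lines join the values of 1 probe and dotted lines mark 2-fold. *WIPI1* is at 1.42 or above on the 3 arrays, and both probes of *ATG12* are lowest in Arp8 KO cells, at -0.66 and -0.64.

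The conjugation genes included *ATG12*, the member with the lowest ratios in Arp8 KO cells. It encodes a ubiquitin-like protein that is joined to ATG5. The first of its probes had 3843 units in the wild type, 3187 for Arp5 KO and 2459 for Arp8 KO cells and 3933 on the labelled Arp8 overexpression array, and the other had 6890, 5630, 4482 and 6868 units. Both probes were lowest in Arp8 KO cells, intermediate in Arp5 KO cells, and near the wild-type value on the labelled Arp8 overexpression array. The log2 ratios to wild-type were -0.25 and -0.27 in Arp5 KO cells, then -0.66 and -0.64 for Arp8 KO cells, and 0.01 and -0.03 on the labelled Arp8 overexpression array, where the former changes sign with the scaling. Against that array, Arp8 KO cells were lower at -0.67 and -0.61. In Arp8 KO over wild-type cells the *ATG12* probes differed by 0.02.

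In Arp5 KO and Arp8 KO cells *ATG7*, the E1-like enzyme of the conjugation systems, and *ATG5*, the partner of ATG12, moved less than *ATG12*. On the labelled Arp8 overexpression array they did not. In the order wild-type, Arp5 KO, Arp8 KO and labelled Arp8 overexpression, the *ATG7* probes were at 1078, 1145, 1215 and 1208 units and at 336, 363, 407 and 296. The first *ATG7* probe changed little, and the second was at 0.47 in Arp8 KO cells over the labelled Arp8 overexpression array where the first was at 0.01. Its log2 ratios were 0.11 and 0.13 in Arp5 KO cells, then 0.16 and 0.26 for Arp8 KO cells, and 0.14 and -0.21 on the labelled Arp8 overexpression array. The *ATG5* probes were at 5204, 4874, 5527 and 6174 units and at 264, 243, 277 and 253, with ratios of -0.07 and -0.09 in Arp5 KO cells, then 0.07 and 0.05 for Arp8 KO cells, and 0.22 and -0.08 on the labelled Arp8 overexpression array. On that array the probes of each gene disagreed in sign.

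*MAP1LC3B* encodes the ATG8 protein LC3B, which marks the autophagosome. Its 3 probes were at 3740, 4057 and 5783 units in wild-type cells, at 2940, 3060 and 5443 for Arp5 KO, at 3371, 3842 and 6844 for Arp8 KO and at 3949, 4358 and 7800 on the labelled Arp8 overexpression array. The log2 ratios were -0.32, -0.38 and -0.07 in Arp5 KO cells, then -0.17, -0.10 and 0.23 for Arp8 KO cells. On the labelled Arp8 overexpression array they were at 0.06, 0.08 and 0.41. Each of the 3 probes was thus lowest in Arp5 KO cells and highest on the labelled Arp8 overexpression array, with the third probe apart from the first 2. *GABARAPL1*, another ATG8 gene, was at 252, 267, 314 and 318 units by the first probe and 125, 129, 139 and 146 by the second. It had ratios of 0.11 and 0.07 in Arp5 KO cells, 0.30 and 0.14 for Arp8 KO cells, and 0.32 and 0.21 on the labelled Arp8 overexpression array, all within 1.5-fold, and the second probe in Arp5 KO cells lay near the median of all probes. Both ATG8 genes have near-identical copies in the genome, and cross-hybridization was not examined.

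*SQSTM1* encodes p62, a receptor that carries ubiquitinated cargo and is itself degraded by autophagy. Its 1 probe was at 3724 units in the wild type, 4618 for Arp5 KO and 4623 for Arp8 KO cells and 5612 on the labelled Arp8 overexpression array. All 3 arrays were above wild-type, at log2 ratios of 0.33, 0.29 and 0.57, and none reached 1.5-fold with the scaling used. Without scaling the last was at 0.59, just past 1.5-fold. After *WIPI1*, it had the highest ratio of the members in Arp5 KO cells and on the labelled Arp8 overexpression array. Protein levels and autophagic flux were not measured.

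The other genes of the pathway were taken from 8 lists by function. These lists hold 75 genes besides the members, of which 73 had a probe, with 109 probes, and 99 to 100 probes could be tested in a comparison. In Arp5 KO cells beyond 2-fold 0 of 99 were higher and 3 lower, where 1.17% and 1.14% of all probes were, and in Arp8 KO cells 0 of 99 were higher and 2 lower, against 1.48% and 2.06%. On the labelled Arp8 overexpression array 0 of 100 were higher and 2 lower than in wild-type cells, against 1.48% and 2.76%, and between Arp8 KO cells and that array 0 of 100 passed in either direction, against 0.936% and 0.923%. The counts are small, and whether they differ from these shares was not tested. The medians over these probes were -0.02, 0.06 and 0.07 relative to wild-type in the same order. With dim signals left at their own value a dim probe of *ULK2* was higher beyond 2-fold on the labelled Arp8 overexpression array, at 11.3 units over 5.18 in the wild type, where it was not well above background.

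**Figure D3:**
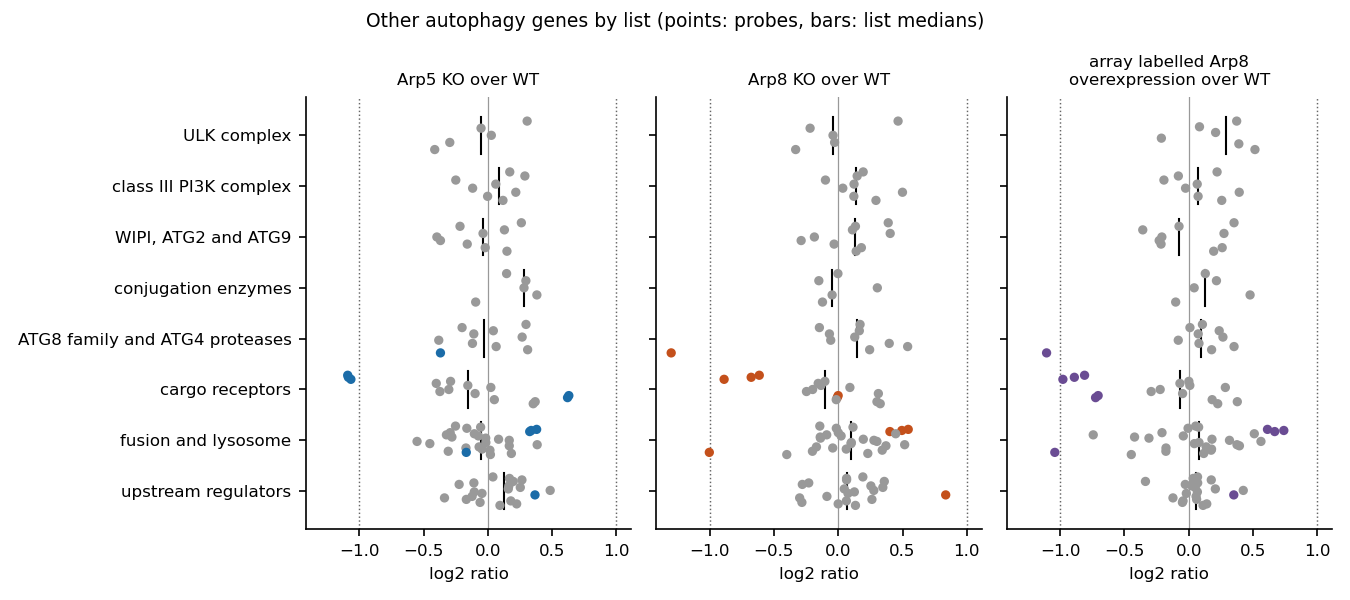
Log2 ratio to wild-type of the probes of other autophagy genes (points), by list, with the median of each list as a bar, for Arp5 KO cells, Arp8 KO cells and the labelled Arp8 overexpression array. Colored points are *BNIP3*, *BNIP3L*, *STX17*, *MAP1LC3C*, *RETREG1*, *CTSB* and *SESN2*, dotted lines mark 2-fold, and no probe is beyond 2-fold on the higher side.

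The probes lower beyond 2-fold in Arp5 KO cells were those of *BNIP3* and *BNIP3L*, mitochondrial outer membrane proteins that act as receptors for the removal of mitochondria. *BNIP3* was at 22891 units in the wild type, 10587 for Arp5 KO and 15130 for Arp8 KO cells and 13264 on the labelled Arp8 overexpression array. The wild-type array was the highest and Arp5 KO the lowest, with log2 ratios to wild-type of -1.09, -0.61 and -0.81. *BNIP3L* has 2 probes, at 8010 and 4735 units in wild-type and 3718 and 2228 in Arp5 KO cells. Both *BNIP3L* probes followed the same order of arrays, with ratios of -1.08 and -1.07 in Arp5 KO cells, -0.68 and -0.89 for Arp8 KO cells, and -0.89 and -0.98 on the labelled Arp8 overexpression array. *WIPI1* and these receptor genes thus differ from wild-type in opposite directions on all 3 arrays, under each scaling tried.

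The *BNIP3* promoter is shown as that of the other autophagy gene with the lowest ratio in Arp5 KO cells, at chr10:131981874-131982173 on the minus strand, from RefSeq on GRCh38.p14. Capitals mark the E-box CACGTG.
BNIP3: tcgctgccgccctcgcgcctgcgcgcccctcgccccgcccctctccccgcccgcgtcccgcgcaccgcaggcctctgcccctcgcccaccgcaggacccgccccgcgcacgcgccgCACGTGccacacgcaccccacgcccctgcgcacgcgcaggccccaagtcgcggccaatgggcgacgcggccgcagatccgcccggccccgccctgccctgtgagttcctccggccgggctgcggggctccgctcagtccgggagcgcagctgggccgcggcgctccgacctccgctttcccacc
It holds 1 E-box, a motif absent from the *WIPI1* window, and 6 GC boxes, which are not capitalized here and share no letters with the E-box. Over the 72 genes of the lists, members included, with a promoter, 12 of 95 promoters (12.6%) had an E-box, 66 (69.5%) a GC box and 6 (6.32%) the AP-1 motif, where 7.26%, 45.0% and 7.71% of all promoters did. These differences were not tested.

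*STX17*, a SNARE that fuses autophagosomes with lysosomes, was at 1173 units in the wild type, 1028 for Arp5 KO and 592 for Arp8 KO cells and 579 on the labelled Arp8 overexpression array. It was near wild-type in Arp5 KO cells, at a log2 ratio of -0.17. On the latter 2 arrays, whose cells share an Arp8 KO origin, it was low, just beyond 2-fold in Arp8 KO cells and at -1.04 on the last. In Arp8 KO cells *STX17* fell short of 2-fold without scaling, at -0.99, and with normexp it did so on both arrays, at -0.85 and -0.94. *MAP1LC3C*, an ATG8 gene, was dim, at 23.0 units in wild-type and 17.5 in Arp5 KO cells and 10.8 on the labelled Arp8 overexpression array. It was not well above background in Arp8 KO cells, which gives at least 2.46-fold lower than in wild-type cells, computed against the lowest signal among probes well above background on that array. With normexp background correction its ratio there was -0.43. On the labelled Arp8 overexpression array its ratio was -1.11, and -0.24 with normexp. Both calls thus depend on the treatment of dim signals. For probes under 50 units the SD of a log2 ratio between repeated spots had a median of 0.45 for Arp8 KO over wild-type cells.

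Within each list the genes with the highest and lowest mean ratio in Arp5 KO and Arp8 KO cells were also named. *SESN2*, a stress-responsive inhibitor of the mTORC1 kinase, was at 964 units in the wild type, 1224 for Arp5 KO and 1741 for Arp8 KO cells and 1249 on the labelled Arp8 overexpression array, with ratios of 0.37, 0.84 and 0.35. *CTSB*, a lysosomal protease, was at 4960, 6355, 7320 and 7707 units by its brightest probe in the same order of arrays. It had ratios of 0.33 to 0.38 in Arp5 KO cells and 0.40 to 0.54 in Arp8 KO cells over 3 probes, and 0.61 to 0.74 on the labelled Arp8 overexpression array. All 3 *CTSB* probes were thus above wild-type on each array, beyond 1.5-fold on the last alone with the scaling used, where the first probe falls to 0.57 with another scaling. *RETREG1*, a receptor for the endoplasmic reticulum that was singled out after its values were seen, was at 1940, 2957, 1962 and 1209 units and at 325, 492, 327 and 200 by its 2 probes. The *RETREG1* ratios were 0.63 and 0.62 in Arp5 KO cells, 0.00 and -0.01 (signs changing with the scaling) for Arp8 KO cells, and -0.70 and -0.72 on the labelled Arp8 overexpression array.

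**Figure D4:**
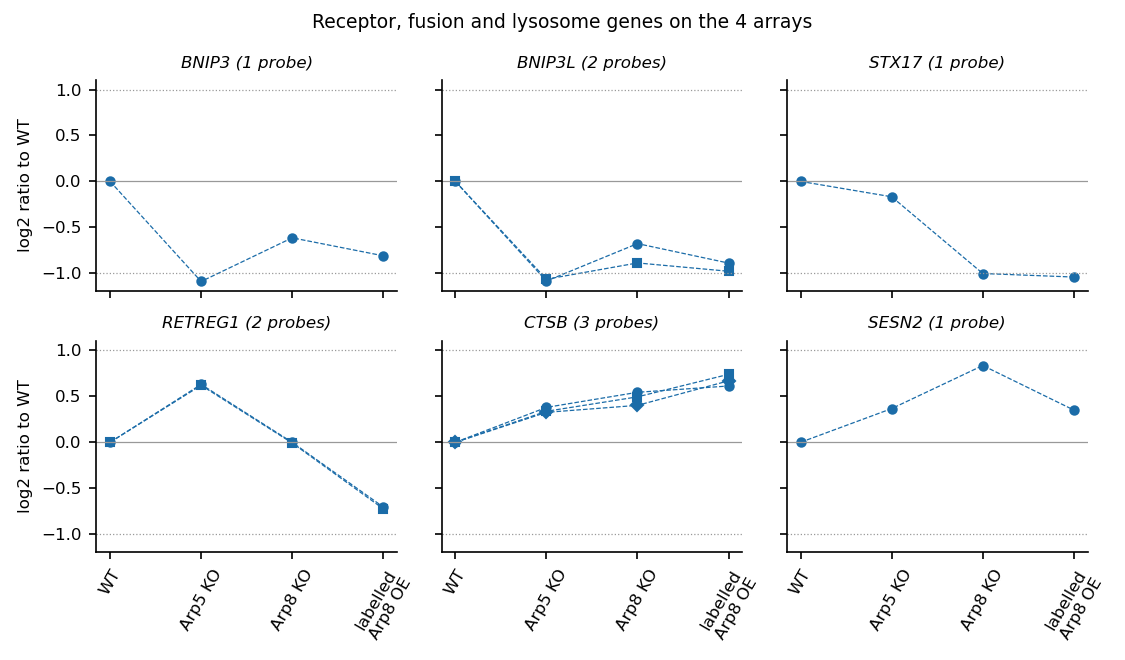
Log2 ratio to wild-type of 6 other autophagy genes on the wild-type (0 by definition), Arp5 KO, Arp8 KO and labelled Arp8 overexpression (OE) arrays, 1 array each, with a dashed line for each probe and dotted lines at 2-fold. *BNIP3* and *BNIP3L* are lowest in Arp5 KO cells, at -1.07 or below, and the probes of *RETREG1* lie on opposite sides of wild-type in Arp5 KO cells and on the last array.

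By the probes chosen, the remaining genes named by this rule stayed within 1.5-fold of wild-type on each array, while the dim second probe of *ULK2* has only a bound. In the ULK complex *ATG101* was highest, at log2 ratios of 0.31 for Arp5 KO and 0.47 for Arp8 KO cells, and *ULK2* lowest, at -0.41 and -0.33. In the class III phosphatidylinositol 3-kinase complex *RUBCN*, a negative regulator, was at 0.22 and 0.50 by its brighter probe and *NRBF2* at -0.25 and -0.10. Among the partners of the WIPI proteins, the lipid transfer gene *ATG2A* was at 0.26 and 0.39 and the scramblase gene *TMEM41B* at -0.37 and -0.29. No list held its extreme genes at the level of *WIPI1* on the higher side.

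Among the conjugation enzymes *ATG16L1*, which places the ATG12 conjugate on the membrane, was at 0.28 and 0.30 in Arp5 KO and Arp8 KO cells, and *ATG3*, the E2-like enzyme for ATG8 proteins, at -0.09 and -0.12. Of the ATG8 family *GABARAPL2* was at 0.06 and 0.54 by its higher probe and *GABARAP* at -0.38 and -0.06. *TOLLIP* had the highest mean of these ratios among the cargo receptors, at 0.35 and 0.33, while *RETREG1* was higher in Arp5 KO cells alone. *STK11*, the kinase that activates AMPK, had the lowest probe of the upstream regulators, at -0.34 and -0.30, and its brighter probe was at -0.12 and -0.09. The upstream regulators had a median of 0.13 for Arp5 KO and 0.07 for Arp8 KO cells.

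The 5 protein-coding genes on each side of *WIPI1* were taken from the RefSeq gene table of GRCh38.p14, used for order only. *SLC16A6*, a member of the monocarboxylate transporter family that lies near *WIPI1*, was at 120 and 124 units in the wild type, 249 and 255 in Arp5 KO, 206 and 186 for Arp8 KO cells, and 172 and 185 on the labelled Arp8 overexpression array. Both its probes were above wild-type on each array, at log2 ratios of 1.07 and 1.07, 0.76 and 0.57, and 0.50 and 0.55. Of the genes that overlap *WIPI1* in this table, *ARSG* was above wild-type on each array within 1.5-fold, at 0.56, 0.20 and 0.29, and the 3 probes of *PRKAR1A* were below it in Arp8 KO cells, at -0.58 to -0.43. *SLC16A6* was thus highest in Arp5 KO cells, where *WIPI1* was the lowest of the 3 arrays other than wild-type. On the other side, *ABCA8*, *ABCA9* and *ABCA6* were not well above background on any array, and *ABCA10* was at 0.28, -0.19 and 0.56 with signals of at most 50.7 units.

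**Figure D5:**
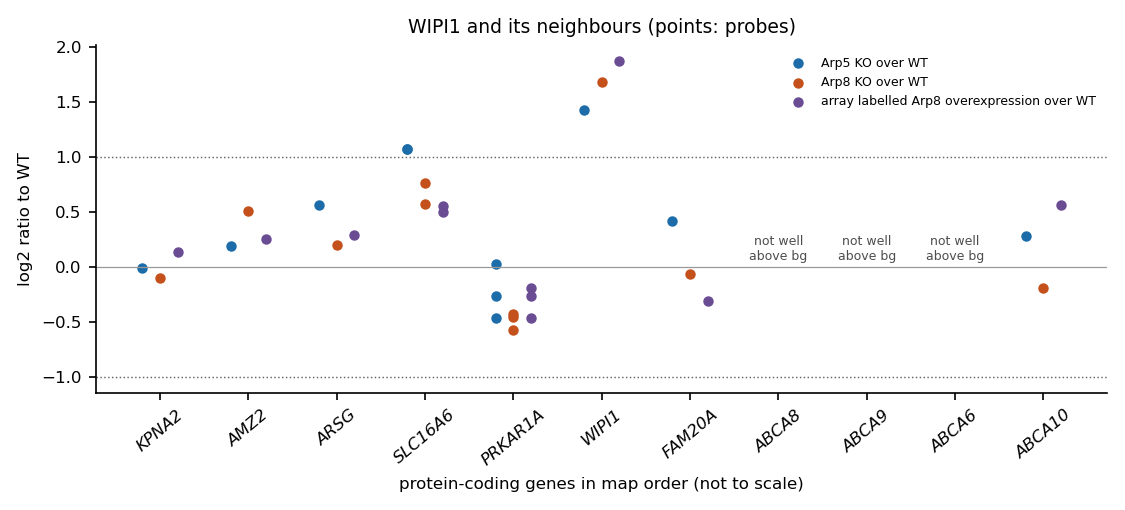
Log2 ratio to wild-type of the probes of *WIPI1* and of the 5 protein-coding genes on each side of it, in map order and not to scale, for the 3 arrays. Values of *FAM20A* in Arp8 KO cells and on the labelled Arp8 overexpression array are bounds, *SLC16A6* is at 1.07 in Arp5 KO cells, and *PRKAR1A*, next to *WIPI1*, is at or below -0.43 in Arp8 KO cells.

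The genes whose ratios lay nearest to those of *WIPI1* were found over 12968 other named genes well above background on all 4 arrays, by the Euclidean distance of the 3 log2 ratios to wild-type. They were *CAPN13* (distance 0.17), *PTGES3L-AARSD1* (0.32), *MELTF* (0.40), *RAPGEF3* (0.52) and *REC114* (0.53). Their probes were dim, with 8.76 to 26.1 units in wild-type cells, where the error of a ratio is large. Nearness of these ratios rests on 4 arrays with a shared wild-type array and says nothing of shared function or control.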

How the data were processed

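Total RNA of 4 Nalm-6 genotypes was measured on single-color arrays, 1 array each. The authors deposited the output of Agilent Feature Extraction 10.5.1.1, whose processed signal is an intensity, background-subtracted within the array with no scaling between arrays. The deposited value table holds intensities equal to the processed signal times a factor per array, of 0.807 to 0.847; how the factor was set is not given in the sources used here. Control and outlier spots were left out, spots of a probe were averaged, and log2 values were taken relative to the 75th percentile of each array. Spots well above background numbered 30394 to 31420 of 43376 per array. A ratio was used where the brighter array was well above background. A partner that was not itself well above background was raised to a floor, the smallest well-measured signal of its array (7.75 to 9.44 units). No spot was saturated.

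Accessions were named through the RefSeq table of GRCh38.p14, which matched 26222 of 41000 probes; the scanner output names another build, so its coordinates were not used for probes. The set of members and the lists was chosen with earlier results of these data known. Genes named besides the members had a probe beyond 2-fold of wild-type, the highest or lowest mean ratio of a list in the KO cells, the nearest pattern or the nearest position to *WIPI1*; *RETREG1*, *DDIT4*, *EPG5*, *LAMP2* and the genes of the brightness limit were chosen after their values were seen. The calculation of ratio calls was tested on simulated data with planted changes larger than 2-fold, which is no test of the measured ratios. Alternatives were other scalings, the authors' table, normexp with an offset of 50 on the median signal (limma 3.58.1, R 4.3.3), outlier spots, the floor, the filter and fold thresholds. Python 3.11.15, numpy 2.4.6, pandas 2.3.3 and matplotlib 3.10.9 were used. Of 18 planned cell type markers, 2 are not reported.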

Additional observations from a re-analysis of the deposited data

Results flagged for a closer look

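*RETREG1*, chosen after its values were seen, is the gene of a receptor for removal of the endoplasmic reticulum. It moved in opposite directions in Arp5 KO cells and on the labelled Arp8 overexpression array, relative to the same wild-type array. Its probes had log2 ratios of 0.63 and 0.62 in Arp5 KO cells and of -0.70 and -0.72 on the labelled Arp8 overexpression array. The difference between these arrays was not tested.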

How the results depend on the processing

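No paired analysis was possible because the genotypes were each hybridized once. *WIPI1* stayed beyond 2-fold of wild-type under every scaling and source of values tried. The values of *WIPI1* moved by more than the spread of repeated spots with the authors' table, to 1.38 in Arp5 KO cells and 1.82 on the labelled Arp8 overexpression array, and with normexp, to 1.32 and 1.76, and to 1.56 in Arp8 KO cells. The median of the members in Arp5 KO cells moved to 0.0040 with quantile normalization and to 0.032 with the authors' table. The median of all probes moved with it, from 0.04 to 0.01 and to 0.0057. With the authors' table, which differs by 1 factor per array, every shift is the same for all probes by construction. On the labelled Arp8 overexpression array the member median moved to 0.14 and 0.15 with these, and in Arp8 KO cells to 0.073 with normexp. The cause of the shifts with quantile normalization and normexp was not tested.

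Raising the threshold to 3-fold left 0 member probes for Arp5 KO over wild-type. The probe of *WIPI1* still passed for Arp8 KO over wild-type, and for the labelled Arp8 overexpression array over wild-type. Of the other autophagy genes, 0 probes were left in each comparison with wild-type. The share of all probes beyond 3-fold is not given here, so these counts cannot be set beside it. At 1.5-fold the members had 3 probes in Arp8 KO over wild-type cells and 2 in Arp8 KO cells over the labelled Arp8 overexpression array, and of the 99 to 100 probes of the other autophagy genes 5 (2 higher, 3 lower), 6 (1 and 5) and 11 (3 and 8) passed in the comparisons with wild-type and 5 (4 and 1) in the last, where 5.01% and 3.88%, 5.34% and 6.89%, 5.32% and 7.93%, and 4.43% and 4.02% of all probes did. Whether these counts differ from the shares of all probes was not tested. Some of the 1.5-fold calls are lost with another scaling or background correction. Both higher probes in Arp5 KO cells are of *RETREG1* and fall to 0.582 and 0.499, and *BNIP3* in Arp8 KO cells goes from -0.61 to -0.558. Beyond 2-fold in Arp8 KO cells the other autophagy genes had 1 probe, in place of 2, without scaling, 0 with normexp and 1 when a signal well above background was asked of each array. Beyond 2-fold on the labelled Arp8 overexpression array they had, in place of 2, 0 with normexp and 1 with that filter, and 3 with the authors' table, with the 75th percentile over probes well above background and with dim signals at their own value. With the last of these, 2 passed between the Arp8 arrays. The shares of all probes under these other settings are not given here, so these counts cannot be set beside them. The ratios of these probes were looked at after the values were seen: *STX17* was at -0.85 in Arp8 KO cells and -0.94 on the labelled Arp8 overexpression array with normexp, and *MAP1LC3C* at -0.43 and -0.24. Each value rests on 1 array per genotype, and *WIPI1* on 1 spot of each.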

Other observations

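The genes nearest to *WIPI1* in their ratios were dim, so the same distance was taken over the 9393 genes with at least 200 units on every array, a limit chosen after those values were seen. The nearest were *HCST* (distance 0.57), *PHLDA1* (0.72), *NINJ2* (0.76), *CSRNP1* (0.82) and *RUNX1T1* (0.86). *HCST*, which encodes the signaling adaptor DAP10, was at 340 units in the wild type, 770 for Arp5 KO and 1550 for Arp8 KO cells and 1430 on the labelled Arp8 overexpression array.

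Some other autophagy genes, chosen after their values were seen, gave ratios beyond 1.5-fold between Arp8 KO cells and the labelled Arp8 overexpression array. *DDIT4*, an inhibitor of mTORC1, was at 20260 units in Arp8 KO cells and 12568 on that array, a log2 ratio of 0.69. *ULK2*, the paralog of *ULK1*, was at 261 and 432 units, a ratio of -0.72. *RETREG1* was at 0.70 and 0.72 and *EPG5* at 0.65 by 1 of 4 probes, a dim one that falls to 0.24 with another scaling or background correction. *LAMP2*, a lysosomal membrane protein gene, had 3 probes that disagreed in Arp5 KO over wild-type cells, at -0.55, -0.02 and -0.45.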
